A study of Homo sapiens with 27 samples.

Results

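The 50 genes described here act in mitosis and at the passage from G2 into mitosis, in human melanoma cells. They were chosen by symbol rather than by a threshold on any value, though with earlier results of these data known. Each was found once in the expression table by its symbol. The table holds 13523 genes, of which 13052 passed the filter on low values, and all 50 members were among those tested. They fall into 10 roles. Cyclins, their kinase and its activating phosphatases are CCNA2, CCNB1, CCNB2, CDK1, CDC25B and CDC25C, anaphase onset is represented by CDC20, UBE2C, PTTG1 and ESPL1, and the other mitotic kinases are PLK1, AURKA and NEK2. The chromosomal passenger complex is AURKB, BIRC5, INCENP and CDCA8, the spindle assembly checkpoint is BUB1, BUB1B, BUB3, MAD2L1 and TTK, and the kinetochore and centromere genes are NDC80, NUF2, SPC24, SPC25, CENPA, CENPE and CENPF. Spindle motors and spindle proteins are KIF11, KIF2C, KIF4A, TPX2, NUSAP1, DLGAP5 and HMMR, and the central spindle and cytokinesis genes are KIF20A, KIF20B, KIF23, PRC1, ECT2, RACGAP1 and ANLN. Chromosome condensation is served by TOP2A, SMC2, SMC4, NCAPG and NCAPH, and 2 members, FOXM1 and MYBL2, are transcription factors.

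A cell enters mitosis when cyclin B and CDK1, released from inhibitory phosphorylation by CDC25 phosphatases, become active, and it leaves mitosis when the anaphase-promoting complex marks cyclin B and securin for destruction. Many of these genes are transcribed late in the cycle: the DREAM repressor holds them off in resting cells through CHR elements in their promoters, and MYBL2 with the MuvB core and then FOXM1 turn them on. Their RNA level in a culture is therefore widely used as a readout of how much of the culture is dividing. In bulk RNA, however, fewer cells in G2 and mitosis cannot be told apart from less of these RNAs in each cell.

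The cells were 501mel, a human melanoma line with a high level of MITF, a transcription factor of the melanocyte lineage to which TFE3 and TFEB are related. Starvation and mTOR inhibition let TFE3 and TFEB enter the nucleus, and the series asked how their loss alters the response. Unedited (WT) cells were labelled as not treated, starved for 12 h in HBSS (a salt solution that has glucose and lacks amino acids) or given Torin, which blocks the mTOR kinase, at 250 nM over the same 12 h. Cells without TFE3 (TFE3 KO), without TFEB (TFEB KO) or without both (DKO) were labelled as 12 h controls or as 12 h in Torin. The control labels of WT and knockout cells thus differ, and whether their handling differed is not stated. Any such difference cannot be told apart from genotype where knockout controls are set against WT controls. Each knockout is 1 clone made with Cas9, so clone and genotype cannot be told apart in any comparison between genotypes. The labels give DMEM with 10% FBS as the medium of all cells. Each of the 9 groups has 3 libraries in the labels, and nothing says that these came from separate cultures, so p-values measure the spread between these libraries.

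The libraries were of the 3′ end type (QuantSeq Forward), in which a transcript gives 1 read whatever its length. Levels of different genes are therefore not scaled by length. Whether the 3′ ends of different genes were captured equally well was not tested, so rankings by level are of the values as measured. The values are on the CPM scale, after normalisation by the authors. A single column appears under 2 labels, WT HBSS replicate 3 and WT Torin replicate 1, with the same value in each of the 13523 genes, and it was used in neither group here. That left 25 libraries, with n = 2 for WT HBSS and WT Torin and n = 3 elsewhere, of 4147050 to 6526392 reads, in which 3 reads correspond to a value of 0.460 to 0.711. TFE3 RNA was -1.79 (TFE3 KO) and -1.77 (DKO) on the log2 scale against WT controls and did not pass in TFEB KO (0.15, adjusted p = 0.621). TFEB RNA, at only 3.25 ± 0.827 in WT controls, was lower in all 3 knockouts, by 1.02 in TFEB KO, 1.41 in TFE3 KO and 1.38 in DKO. All 8 melanocyte markers examined were present in every library, and of the markers of other cell types only 3 of 6 fibroblast genes were in the table, with a summed value of 0.624 to 7.38.

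Because CHR elements are the best known shared feature of these promoters, windows around them are shown for some of the members whose promoters hold the letters. The promoter sequences are RefSeq's for GRCh38.p14, from 250 bases before to 50 bases after each start, and the capitals mark the CHR letters, TTTGAA or TTTAAA, searched on both strands.
CCNB1 promoter (chr5:69167108-69167137, + strand): agcagtgcggggTTTAAAtctgaggctagg
CCNB2 promoter (chr15:59105105-59105134, + strand): agcgacgcggtaTTTGAAtcctggaacaag
CDK1 promoter (chr10:60778188-60778217, + strand): tgggagaaaaaaTTTAAAagaagaacggag
PLK1 promoter (chr16:23678848-23678877, + strand): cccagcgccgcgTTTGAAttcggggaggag
CDC20 promoter (chr1:43358904-43358933, + strand): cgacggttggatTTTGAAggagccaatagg
CENPA promoter (chr2:26786026-26786055, + strand): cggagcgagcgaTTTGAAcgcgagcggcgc
PRC1 promoter (chr15:90994538-90994567, - strand): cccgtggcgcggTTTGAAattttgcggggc
BUB1B promoter (chr15:40161034-40161063, + strand): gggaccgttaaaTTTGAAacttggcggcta

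RefSeq promoter entries were found for 42 of the 50 members. The CHR letters were in 34 of these 42 promoters (81.0%), against 24.3% of the 27305 promoters of the RefSeq table and 16.0% of the 9938 promoters of genes in the expression table. The TTTGAA form was in 66.7% of member promoters and the TTTAAA form in 31.0%, and some promoters hold both. TTTAAA reads the same on both strands, as does CACGTG below. In 20 members the letters lay 10 to 70 bases before the start. The CDK1 window shown is outside this range, at -131 relative to the start, and CDK1 has a further match at -161. The 8 promoters without either form were those of CCNA2, CDC25B, CDC25C, AURKB, BUB1, SPC24, MYBL2 and NEK2. Each symbol was matched to a single window and only these forms were searched. An element at another start or in another form would be missed. The CCAAT box, searched as CCAAT on both strands, was in 71.4% of member promoters and in 35.7% of all, and where it lies next to a CHR the letters of both can overlap. The E-box CACGTG, the letters that MITF, TFE3 and TFEB can bind, was in 6 member promoters (CENPF, CENPE, CCNB1, ANLN, PLK1 and MYBL2), which is 14.3% against 7.43% of all promoters and 10.3% of those of genes in the expression table. These are matches of letters in a window and say nothing of whether a factor is bound.

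In unedited cells without treatment the members spanned a wide range of levels. TOP2A, the topoisomerase that untangles chromosomes, was the highest at 1016 ± 152 (SD, n = 3), followed by the condensin subunit SMC4 at 546 ± 69.8 and the kinetochore protein CENPF at 379 ± 107. Next came the phosphatase CDC25B at 326 ± 16.6, then the spindle organisers PRC1 at 300.4 ± 11.01 and TPX2 at 300.02 ± 9.92, whose order is within their spread. The low end held the phosphatase CDC25C at 9.84 ± 1.07, separase (ESPL1) at 19.98 ± 2.76 and the kinase NEK2 at 20.5 ± 2.05, the last pair again being within their spread. SPC24, a subunit of the NDC80 kinetochore complex, had only 1 to 11 reads per library, whereas no other member had fewer than 40 in any library, so SPC24 is close to the detection limit.

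Summed over the 50 members, the value was 7820.1 ± 274 in WT controls and 11683 ± 89.7 in HBSS, and it was 7614 ± 337 in WT cells in Torin. It was 9192 ± 338 in TFE3 KO controls and 7337 ± 169 in TFE3 KO cells in Torin, and 9157 ± 597 in DKO controls and 7107 ± 288 in DKO cells in Torin. In TFEB KO cells it was 8129.8 ± 179 without and 8374 ± 56.8 with Torin. Such a sum gives most weight to members with high values, and TOP2A and CENPF rose with Torin in WT and TFEB KO. In TFEB KO, TOP2A was at 1314, 1122 and 1118 without and 1806, 1777 and 1727 with Torin. CENPF was at 393, 376 and 364 against 657, 674 and 706. There 18 of the 50 members fell with Torin and 5 rose, and in WT 25 fell and 8 rose. The sums therefore do not show how many members fell. WT HBSS was the group with the highest mean for 30 members and TFE3 KO control for 10. The lowest mean was in DKO cells in Torin for 17 members and in TFE3 KO cells in Torin for 16. The controls labelled WT replicate 1, TFE3 KO replicate 3 and DKO replicate 3 had lower TOP2A, CENPF, CENPE and SMC2 than the other controls of their genotype.

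**Figure D1:**
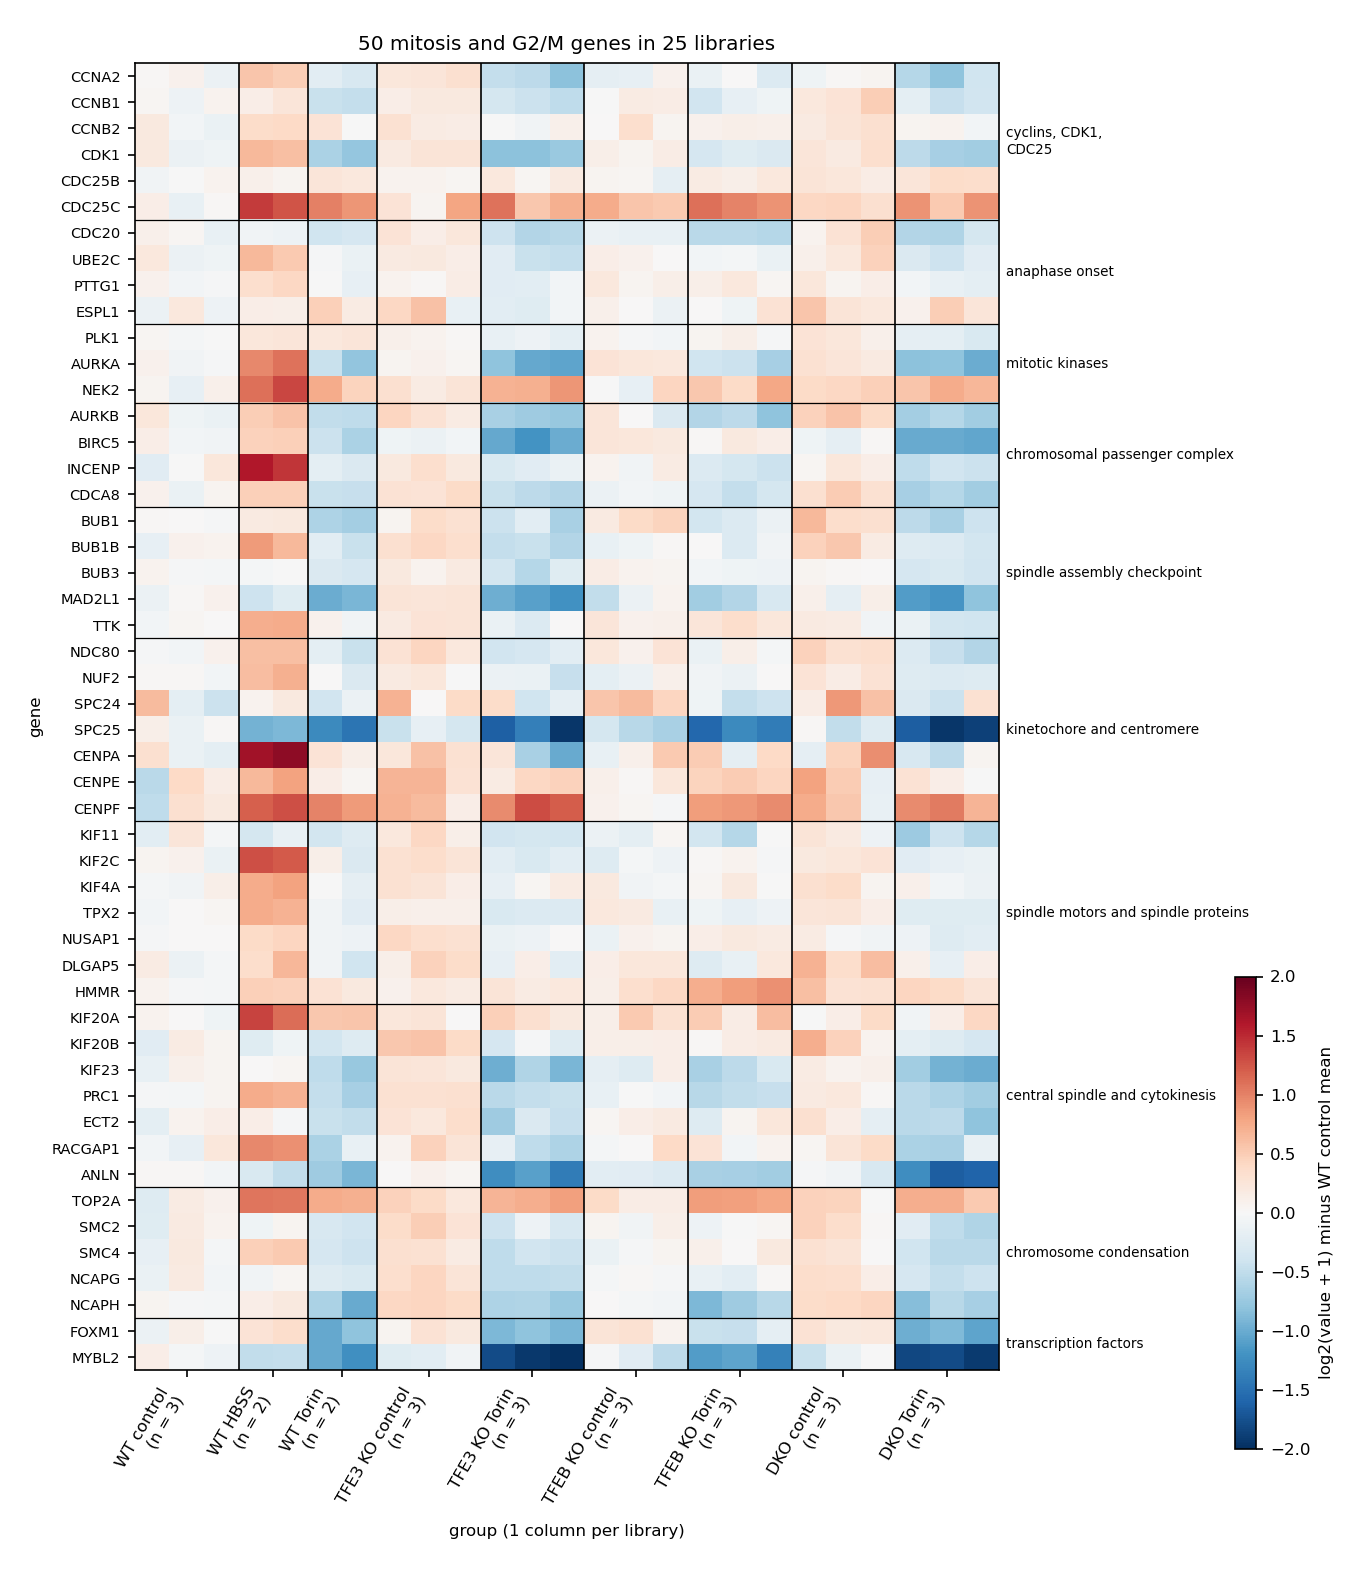
Heat map of the 50 members (rows, ordered by role) in the 25 libraries (columns, grouped by genotype and treatment), where colour is the gene's log2(value + 1) minus its mean over the WT controls, from blue (lower) to red (higher). The WT HBSS columns are red for most members, and the Torin columns of TFE3 KO and DKO are blue for many.

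Most of the members rose in HBSS in WT cells. The part of amino acids, serum or other components of the medium in this rise was not tested. Of the 50, 32 rose and 3 fell at an adjusted p under 0.05 (limma), where the background over all 13052 genes was 23.6% rising and 24.7% falling. The median log2 fold change of the members was 0.47, against -0.03 for all genes. With no overlap between HBSS and control libraries, 35 members lay higher and 4 lower, beside 63.1% of all genes in either direction. At least 2-fold rises were seen in 9 members and 2-fold falls in 0, where 13.1% of all genes passed at that size in either direction. Every member of the mitotic kinases (3 of 3) and of the chromosomal passenger complex (4 of 4) rose, as did 6 of 7 spindle proteins, 5 of 7 kinetochore genes and 4 of 6 cyclins and activators. Of the anaphase onset genes 2 of 4 rose, of the checkpoint and the condensation genes 2 of 5 each, of the central spindle genes 3 of 7, with 1 that fell, and of the transcription factors 1 rose and 1 fell.

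The cyclins and their kinase did not move evenly. CDK1, the kinase that drives entry into mitosis, stood at 255, 205 and 210.2 in the control libraries and at 349 and 338 in HBSS, so the groups were apart (log2 fold change 0.63 ± 0.09, adjusted p = 3.32e-08, where ± is the standard error). CCNB1, its cyclin partner, stood at 108, 97.98 and 111 in controls and at 116 and 125 in HBSS, and it did not pass (log2 fold change 0.19 ± 0.10, adjusted p = 0.128, 95% interval -0.02 to 0.39). The second B-type cyclin, CCNB2, passed and stood at 138, 116 and 111 against 156 and 160.1. CDC25C, a phosphatase that activates CDK1 at mitotic entry, rose from 10.8, 8.71 and 9.95 to 27.4 and 24.9 (log2 fold change 1.33 ± 0.19, adjusted p = 5.73e-08), whereas its relative CDC25B, at 309, 325 and 342 against 349.6 and 338, did not pass. Both CDC25 promoter windows lack the CHR letters in the forms searched, as does that of CCNA2 (cyclin A). CCNA2 rose from 81.9 ± 5.94 to 118 ± 3.10.

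The 2 members with the highest fold changes in HBSS act at the centromere. CENPA, the histone variant that marks the centromere, was at 28.1, 20.2 and 19.3 in controls and at 73.6 and 79.1 in HBSS, with no overlap (log2 fold change 1.74 ± 0.34, adjusted p = 4.08e-04). The fit pools the spread of all groups, and CENPA varied within others, such as the DKO controls at 19.5, 30.7 and 43.4. In the column that stands under 2 labels CENPA was at 43.4, above the WT controls but below both HBSS libraries used. The size and rank of the CENPA rise thus depend on leaving that column out. INCENP, the scaffold of the chromosomal passenger complex, was at 84.8, 99.2 and 116 against 303 and 269.99, with a smaller standard error (log2 fold change 1.52 ± 0.10, adjusted p = 4.88e-17). The other members of that complex rose less, with AURKB, its kinase, going from 242 ± 34.9 to 347 ± 14.3 and BIRC5 (survivin) from 225 ± 17.9 to 311 ± 1.15.

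KIF20A, KIF2C, AURKA, TOP2A and CENPF rose as well. KIF20A, a kinesin of the central spindle, went from 39.3, 37.6 and 34.9 to 96.2 and 82.3, and KIF2C, which depolymerises microtubules at kinetochores, from 98.1, 100.2 and 86.6 to 233 and 223. AURKA, the kinase of the spindle poles, went from 277, 247 and 256 to 505 and 549. In all 3 genes the HBSS libraries lay above every control. TOP2A was at 844, 1132 and 1074 in controls and at 2112 and 2085 in HBSS, and CENPF at 257, 459.6 and 421 against 843 and 905; these are among the genes in which WT control replicate 1 was lower than the other controls.

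Anaphase, checkpoint and condensation genes split in HBSS. UBE2C, the ubiquitin-conjugating enzyme of the anaphase-promoting complex, stood at 203, 162 and 165 in controls against 275 and 253 in HBSS, and securin (PTTG1) at 269.8, 244 and 251 against 323 and 340.1, and both passed. CDC20, which activates that complex, stood at 187, 179 and 157 against 166 and 162 and did not pass. Of the checkpoint genes, BUB1B (56.4, 66.9 and 66.2 against 114 and 98.8) and the kinase TTK (24.7, 26.1 and 25.8 against 42.8 and 43.1) rose, while BUB1 (37.1, 36.4 and 35.7 against 41.4 and 42.1) and MAD2L1 (46.5, 51.3 and 53.9 against 37.7 and 42.7) did not pass. SMC4 rose (487, 623 and 528 against 754 and 785), whereas its condensin partners SMC2, NCAPG and NCAPH did not pass. RACGAP1 (28.9, 26.7 and 35.3 against 59.8 and 57.3) and PRC1 (295, 293 and 313 against 504 and 485), which build the central spindle, rose, and their partner KIF23 (91.4, 109 and 106 against 103 and 105) did not pass. The 15 members that did not pass had log2 fold changes of -0.32 to 0.19.

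The 3 members that fell in HBSS were SPC25, MYBL2 and ANLN. SPC25, the partner of SPC24 in the NDC80 complex, was at 37.96, 31.7 and 35.3 in controls and 17.7 and 18.2 in HBSS (log2 fold change -0.92 ± 0.18, adjusted p = 2.10e-05), although NDC80 and NUF2 of the same complex rose. MYBL2, the activator bound to MuvB, was at 319.6, 283 and 271 against 207 and 209.5 (log2 fold change -0.48 ± 0.12, adjusted p = 7.45e-04). ANLN (anillin), the scaffold of the cleavage furrow, was at 91.2, 91.1 and 86.1 against 72.03 and 63.4 (log2 fold change -0.40 ± 0.12, adjusted p = 0.00413). FOXM1, the later activator, moved the other way, from 114, 134 and 123 to 149.6 and 158 (log2 fold change 0.31 ± 0.10, adjusted p = 0.0094), and so did PLK1, the kinase of centrosome and kinetochore, from 284, 269 and 275 to 323 and 326 (log2 fold change 0.23 ± 0.08, adjusted p = 0.00957). Without WT HBSS replicate 2 the calls of PLK1, ANLN and FOXM1 were lost (adjusted p = 0.0627, 0.098 and 0.0927), and that of FOXM1 also without WT control replicate 1 (adjusted p = 0.0528). With the identical column counted as WT HBSS, 38 members passed in place of 35, and CCNB1 was then among them (adjusted p = 0.0158).

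**Figure D2:**
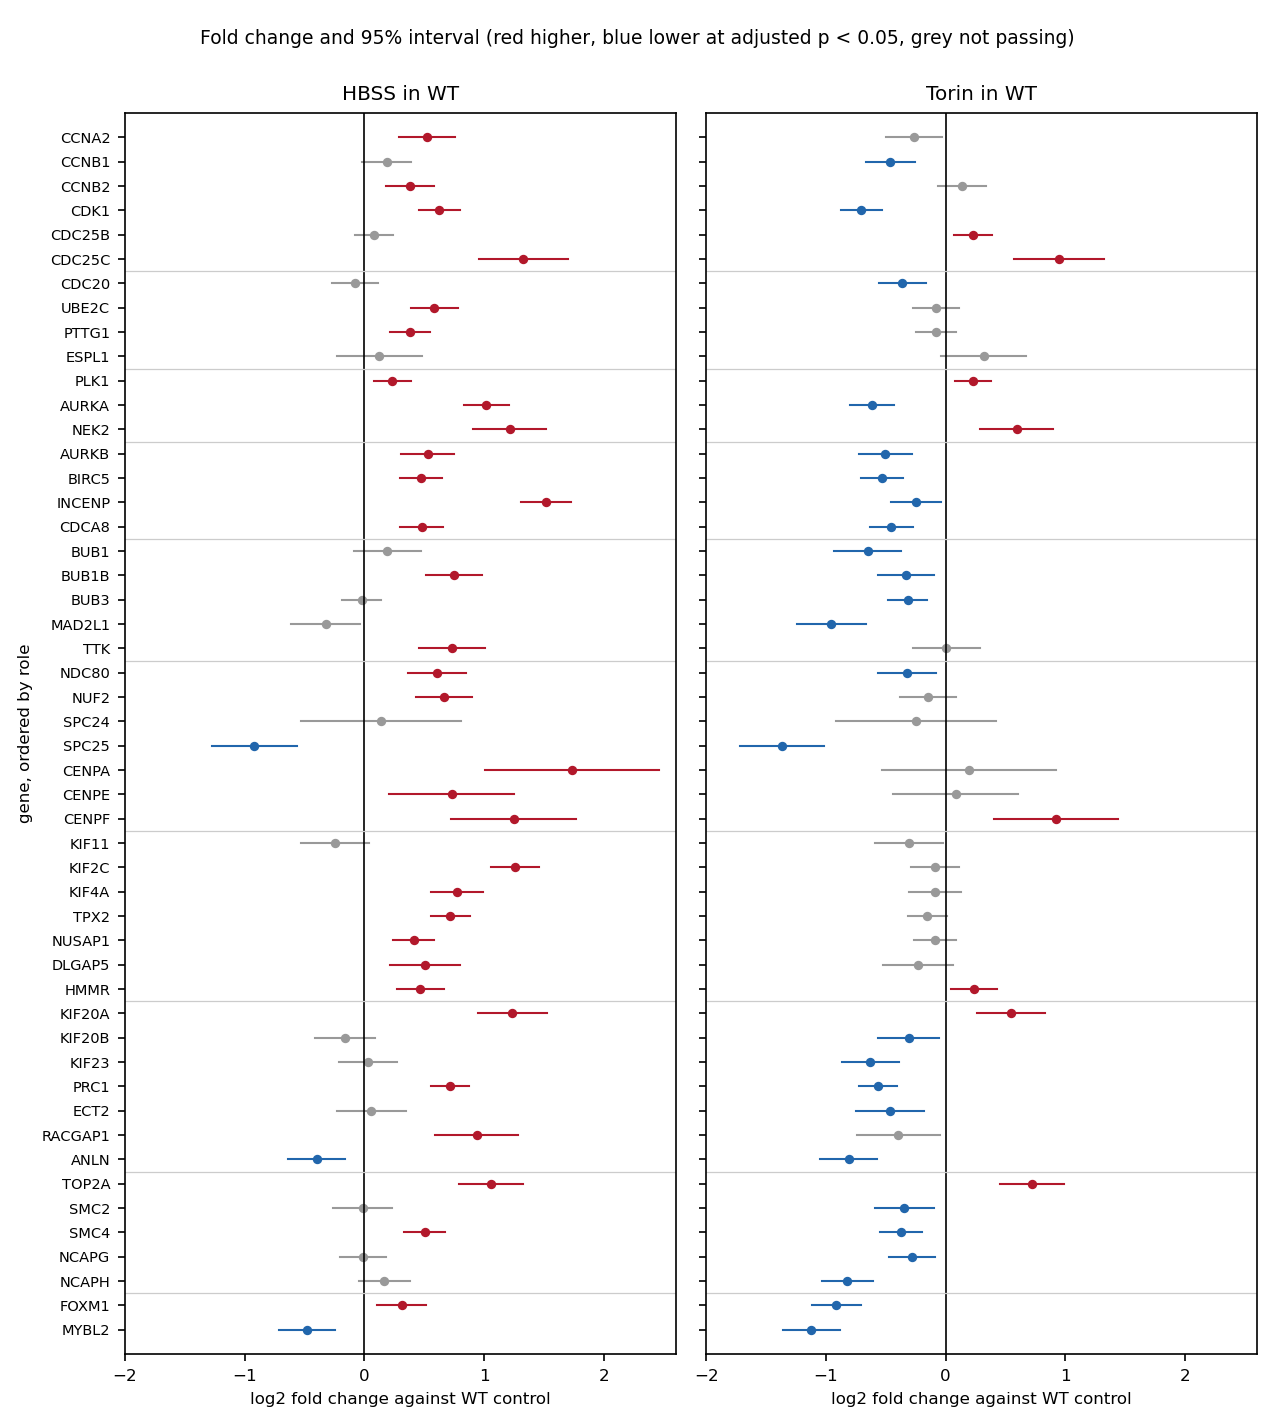
Log2 fold change (x axis) of each member (y axis, ordered by role) in WT cells in HBSS (left) and in Torin (right) against the WT controls, with lines for the 95% interval, red and blue for higher and lower at an adjusted p under 0.05 and grey for members that did not pass. CENPA, INCENP and CDC25C lie farthest to the right in HBSS, and SPC25 and MYBL2 farthest to the left in Torin.

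Torin lowered more of the members than it raised in WT cells. There, 25 of the 50 members fell and 8 rose, beside 23.4% of all genes falling and 20.5% rising, and the median log2 fold change of the members was -0.29, against 0.00 for all genes. Falls of at least 2-fold were found in 2 members, SPC25 and MYBL2, and rises of that size in 0 (9.66% of all genes passed at that size in either direction). With no overlap between Torin and control libraries, 28 members lay lower and 8 higher, beside 60.2% of all genes in either direction. The falls covered all 4 passenger complex genes, 4 of 5 checkpoint genes, 5 of 7 central spindle genes, 4 of 5 condensation genes and both transcription factors, but 0 of 7 spindle motors and spindle proteins.

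Both activators of the late cell cycle fell. MYBL2 was at 319.6, 283 and 271 in controls and at 143 and 124 in Torin (log2 fold change -1.12 ± 0.12, adjusted p = 4.11e-10). FOXM1 was at 114, 134 and 123 against 60.5 and 70.2 (log2 fold change -0.91 ± 0.10, adjusted p = 2.97e-10). Neither gene had a Torin library within the range of the controls. CDK1 was at 143 and 130.1 in Torin, below every control (log2 fold change -0.70 ± 0.09, adjusted p = 3.19e-09), and CCNB1 was at 77.1 and 75.6 (log2 fold change -0.46 ± 0.10, adjusted p = 2.02e-04). SPC25 was at 13.8 and 12.1 (log2 fold change -1.37 ± 0.18, adjusted p = 1.23e-08). MAD2L1, which holds back anaphase until chromosomes are attached, went from 46.5, 51.3 and 53.9 to 24.8 and 26.3 (log2 fold change -0.95 ± 0.14, adjusted p = 3.96e-07).

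Among the other members that fell, AURKA was at 277, 247 and 256 in controls against 191 and 151 in Torin, KIF23 at 91.4, 109 and 106 against 71.5 and 59.97 and PRC1 at 295, 293 and 313 against 217 and 189. The condensin subunit NCAPH was at 105, 98.6 and 97.8 against 64.2 and 49.3, and BUB1 at 37.1, 36.4 and 35.7 against 23.4 and 22.3. INCENP passed with overlapping libraries, at 84.8, 99.2 and 116 against 86.5 and 80.6. The 17 members that did not pass, among them CCNA2, CCNB2, CENPA, UBE2C and PTTG1, had log2 fold changes of -0.40 to 0.32.

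The 8 members that rose in Torin in WT cells were CDC25C, CENPF, TOP2A, NEK2, KIF20A, HMMR, CDC25B and PLK1. CDC25C was at 20.6 and 18.96 (log2 fold change 0.94 ± 0.19, adjusted p = 4.90e-05), above every control. CENPF was at 731 and 665 (log2 fold change 0.92 ± 0.24, adjusted p = 0.00561) and TOP2A at 1682 and 1649.7 (log2 fold change 0.72 ± 0.13, adjusted p = 1.26e-04). The call of CENPF was lost when only WT control and WT Torin libraries were fitted (adjusted p = 0.095). PLK1 was at 319.7 and 328 (log2 fold change 0.23 ± 0.08, adjusted p = 0.0125), a small change that did not pass without WT Torin replicate 3 (adjusted p = 0.0929).

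The column that stands under both labels was assigned to neither, but most of its values lay with the HBSS libraries. AURKA was at 579 in it, against 505 and 549 in HBSS and 191 and 151 in Torin. INCENP was at 296 (303 and 269.99 in HBSS and 86.5 and 80.6 in Torin) and CDK1 at 339 (349 and 338 in HBSS and 143 and 130.1 in Torin). CENPA, at 43.4, lay between the HBSS libraries (73.6 and 79.1) and the Torin libraries (27.2 and 24.2). Its sum over the 50 members was 12004, against 11619 and 11746 in HBSS and 7852 and 7376 in Torin. For 47 of the 50 members, and for 77.3% of all genes tested, it was nearer on the log2 scale to the mean of the HBSS libraries than to that of the Torin libraries. Counting it as WT Torin therefore puts a library with values like those in HBSS among the Torin libraries. Counted so, it cut the members that passed to 15, of which 7 rose and 8 fell. CDK1 and CCNB1 then did not pass (adjusted p = 0.328 and 0.388). The estimate for INCENP then turned from -0.25 to 0.36 (adjusted p = 0.372), and that for NDC80 from -0.32 to 0.0025 (adjusted p = 0.993).

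Set directly against each other, the 2 treatments differed in most members. In HBSS 37 of the 50 were higher than in Torin and 0 were lower, beside 26.1% and 23.1% of all genes, and the median difference was 0.65 on the log2 scale (-0.01 for all genes). In 11 members it was at least 2-fold, where 16.6% of all genes passed at that size in either direction. INCENP differed most (303 and 269.99 against 86.5 and 80.6; log2 fold change 1.76 ± 0.11, adjusted p = 1.20e-17), then AURKA (505 and 549 against 191 and 151; log2 fold change 1.63 ± 0.10, adjusted p = 3.10e-18) and CENPA (73.6 and 79.1 against 27.2 and 24.2; log2 fold change 1.54 ± 0.38, adjusted p = 0.00263). CDK1 (log2 fold change 1.33 ± 0.09, adjusted p = 2.64e-16), FOXM1 (log2 fold change 1.22 ± 0.11, adjusted p = 8.21e-13), CCNB1 (log2 fold change 0.65 ± 0.11, adjusted p = 3.75e-06) and MYBL2 (log2 fold change 0.64 ± 0.13, adjusted p = 6.53e-05) were all higher in HBSS than in Torin. PLK1 showed a difference of 0.00 ± 0.08 and did not pass (adjusted p = 0.974, 95% interval -0.16 to 0.17). With the identical column counted as WT Torin 21 members passed, and CCNB1 and MYBL2 did not (adjusted p = 0.113 and 0.0658).

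**Figure D3:**
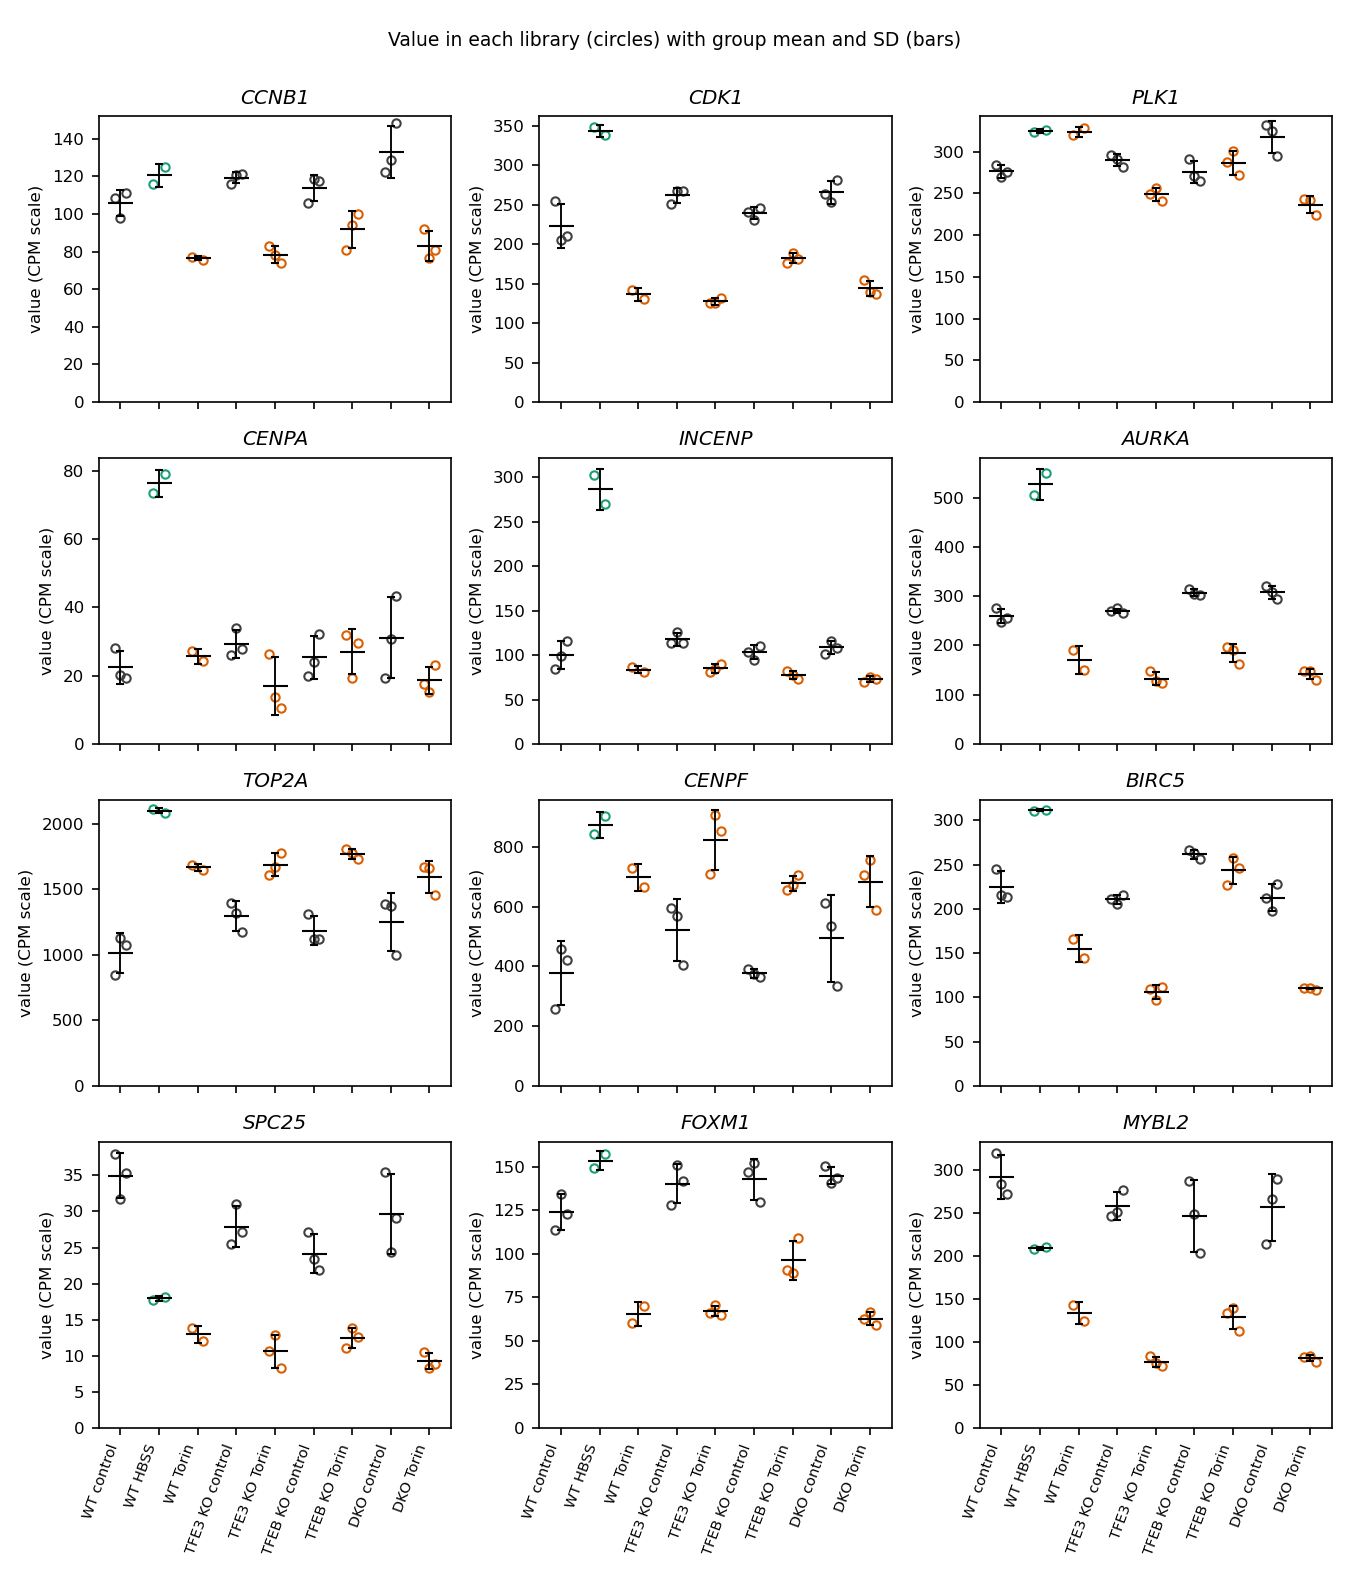
Value (y axis, CPM scale, from 0) of 12 members in each of the 25 libraries (circles), by group (x axis), with the group mean and SD as bars. INCENP, CENPA and CDK1 are highest in the WT HBSS libraries, and MYBL2 and SPC25 are lower in Torin than in the controls of each genotype.

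Other lists of cell cycle genes are given beside the members by their counts, and no list was tested against another. Of all genes, 23.6% rose and 24.7% fell in HBSS, and 20.5% rose and 23.4% fell in Torin. Of 40 genes of G1/S and DNA replication, which come earlier in the cycle, 38 fell and 0 rose in HBSS, with a median log2 fold change of -0.77. The licensing factor CDC6 was among them (-1.87 ± 0.12). In Torin 37 of the 40 fell and 0 rose (median -1.23), among them RRM2, a subunit of ribonucleotide reductase (-2.37 ± 0.09). Of 30 further kinetochore and checkpoint genes 6 rose and 16 fell in HBSS (median -0.38), and 0 rose and 19 fell in Torin. ZWINT, which links the checkpoint to the kinetochore, fell in both treatments (-1.61 ± 0.12 in HBSS and -1.59 ± 0.12 in Torin).

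Of 36 further spindle, kinesin and centrosome genes 14 rose and 5 fell in HBSS, and 3 rose and 21 fell in Torin. CEP152, a scaffold of centriole duplication, rose in HBSS (1.39 ± 0.16). Of 17 cohesin and other condensin genes 8 rose and 2 fell in HBSS, and 3 rose and 7 fell in Torin. Of 16 subunits and regulators of the anaphase-promoting complex 1 rose and 6 fell in HBSS, and 0 rose and 5 fell in Torin. Among 13 genes that restrain entry into mitosis and their regulators, 5 rose and 1 fell in HBSS, including a rise of GADD45A (1.44 ± 0.18), a gene induced by stress. In Torin 1 of them rose and 11 fell, including PKMYT1, a kinase that inhibits CDK1 (-1.12 ± 0.12). Of 12 DREAM and MuvB subunits, which bind CHR promoters, 6 rose and 3 fell in HBSS, and 2 rose and 6 fell in Torin. Some of these shares were near those of all genes. The DREAM and MuvB falls in HBSS were 25% beside 24.7%, and the cohesin and condensin rises in Torin 17.65% beside 20.5%.

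**Figure D4:**
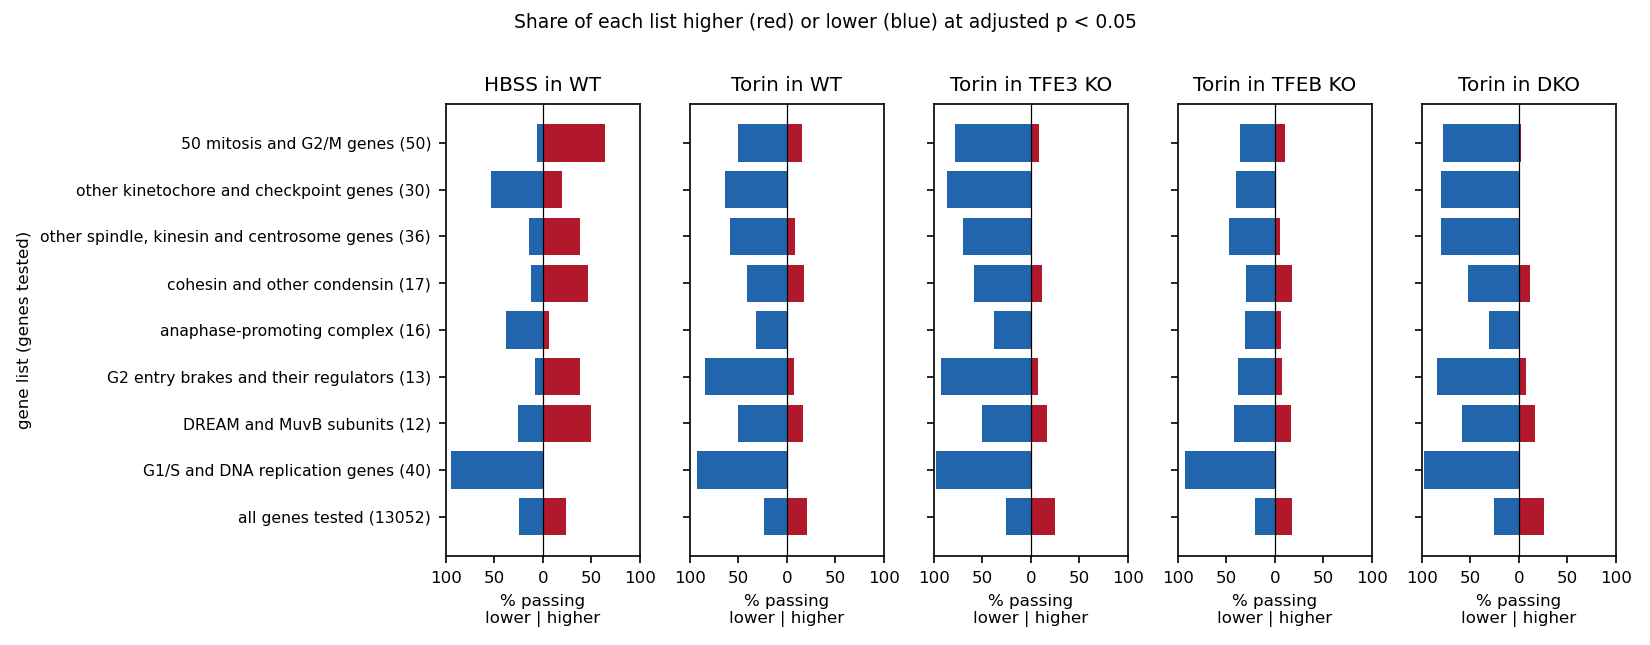
Percent of each gene list (y axis) that was higher (red, to the right of 0) or lower (blue, to the left) at an adjusted p under 0.05 in HBSS and in Torin in each genotype, for the 50 members, the 7 other lists and all genes tested. In HBSS 32 of the 50 members rose, the highest share among these lists, which were chosen with earlier results of these data known. The blue bar of the G1/S list covers nearly the whole list in each panel.

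Without drug, the members that differed between a knockout clone and WT were, with 1 exception, higher in the clone. In TFE3 KO 11 of the 50 members were higher and 0 lower than in WT, beside 3.57% and 5.84% of all genes. In DKO 20 were higher and 0 lower (5.64% and 7.49% of all genes). In TFEB KO 4 were higher and 1 lower (7.46% and 7.18% of all genes). These 3 comparisons use the same WT controls. The median log2 differences of the members were 0.25, 0.24 and 0.06, and that of all genes was 0.00 in each.

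In TFE3 KO the highest differences were those of KIF20B, a kinesin of cytokinesis (141, 185 and 172 in WT and 239, 245 and 214 in TFE3 KO; log2 fold change 0.49 ± 0.11, adjusted p = 0.00262), and of the condensin subunits NCAPH (105, 98.6 and 97.8 against 134, 136 and 130.4; log2 fold change 0.41 ± 0.09, adjusted p = 0.00228) and SMC2 (log2 fold change 0.38 ± 0.11, adjusted p = 0.021). CDK1 passed narrowly (log2 fold change 0.23 ± 0.08, adjusted p = 0.0424), while CCNB1, PLK1, FOXM1 and MYBL2 did not (log2 differences 0.17 ± 0.09, 0.07 ± 0.07, 0.18 ± 0.09 and -0.17 ± 0.10). SMC2 is one of the genes in which WT control replicate 1 was low, and its call was lost without that library (adjusted p = 0.151). It was also lost without TFE3 KO control replicate 1 or 2 (adjusted p = 0.0597 and 0.113). The call of CDK1 was lost without WT control replicate 2 or 3 or without any 1 of the TFE3 KO controls (adjusted p from 0.0563 to 0.222), and the count of members that passed fell to 5 without TFE3 KO control replicate 2 and to 7 without TFE3 KO control replicate 1.

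In DKO the highest were DLGAP5, which stabilises spindle microtubules (44.04, 36.03 and 38.4 in WT and 64.7, 50.7 and 61.04 in DKO; log2 fold change 0.56 ± 0.13, adjusted p = 0.00171), AURKB (282, 225 and 218 against 330.3, 358 and 313; log2 fold change 0.47 ± 0.10, adjusted p = 7.27e-04) and the checkpoint kinase BUB1 (37.1, 36.4 and 35.7 against 57.96, 46.7 and 45.7; log2 fold change 0.44 ± 0.12, adjusted p = 0.0109). CCNB1 (log2 fold change 0.32 ± 0.09, adjusted p = 0.0105), CDK1 (log2 fold change 0.25 ± 0.08, adjusted p = 0.0188) and PLK1 (log2 fold change 0.20 ± 0.07, adjusted p = 0.0429) were higher as well, and FOXM1 and MYBL2 did not pass (0.23 ± 0.09 and -0.19 ± 0.10). The count rested on single libraries: it was 12 without WT control replicate 2 or 3, 10 without DKO control replicate 1 or 2, and 9 when only WT control and DKO control libraries were fitted. CCNB1 lost its call without WT control replicate 2 or DKO control replicate 3 (adjusted p = 0.0803 and 0.103). CDK1 lost it without WT control replicate 2 or 3 or DKO control replicate 3 (adjusted p from 0.094 to 0.141), PLK1 without WT control replicate 2 or 3 or DKO control replicate 1 or 2 (adjusted p from 0.104 to 0.174), and BUB1 without DKO control replicate 1 (adjusted p = 0.112).

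The 4 members higher in TFEB KO were CDC25C (10.8, 8.71 and 9.95 in WT and 17.1, 14.8 and 14.6 in TFEB KO; log2 fold change 0.61 ± 0.17, adjusted p = 0.00962), HMMR, a spindle and hyaluronan-binding protein (log2 fold change 0.29 ± 0.09, adjusted p = 0.0163), AURKA (log2 fold change 0.24 ± 0.08, adjusted p = 0.0403) and BIRC5, and the member lower was SPC25 (log2 fold change -0.52 ± 0.16, adjusted p = 0.0194). Their share is near the background, and the count fell to 1 without WT control replicate 2 or 3 or without TFEB KO control replicate 2 or 3. Each named call was lost without at least 1 library: CDC25C without WT control replicate 2 or TFEB KO control replicate 1 (adjusted p = 0.0516 and 0.0559), HMMR without replicate 2 or 3 of either group (adjusted p from 0.0523 to 0.102), AURKA without any 1 library except WT control replicate 1 (adjusted p from 0.059 to 0.142) and SPC25 without WT control replicate 1 or 3 or TFEB KO control replicate 2 or 3 (adjusted p from 0.0551 to 0.0868). CCNB1, CDK1, PLK1, FOXM1 and MYBL2 did not pass (0.10 ± 0.09, 0.10 ± 0.08, 0.00 ± 0.07, 0.21 ± 0.09 and -0.25 ± 0.10), although MYBL2 did without TFEB KO control replicate 1 (adjusted p = 0.0181).

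TFE3 KO and TFEB KO cells were also compared directly. Without drug 17 members were higher in TFE3 KO and 1 was lower, beside 14.3% and 15.6% of all genes, with a median difference of 0.18. KIF2C was at 118, 121 and 114 in TFE3 KO and 79.2, 92.4 and 88.4 in TFEB KO (log2 fold change 0.44 ± 0.09, adjusted p = 1.40e-04), and BUB1B, which keeps the anaphase-promoting complex off, was at 79.1, 84.3 and 80.2 against 56.7, 59.04 and 63.7 (log2 fold change 0.44 ± 0.10, adjusted p = 9.90e-04). NCAPH was at 134, 136 and 130.4 against 100.4, 98.02 and 96.98 (log2 fold change 0.43 ± 0.09, adjusted p = 3.59e-04). The exception was BIRC5, at 211, 206 and 216 in TFE3 KO and 266, 263 and 256 in TFEB KO (log2 fold change -0.31 ± 0.08, adjusted p = 0.00164). None of CCNB1, CDK1, PLK1, FOXM1 and MYBL2 passed (0.07 ± 0.09, 0.13 ± 0.08, 0.07 ± 0.07, -0.03 ± 0.09 and 0.08 ± 0.10).

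Torin lowered members in each knockout, each compared with its own controls. In TFE3 KO 39 of 50 fell and 4 rose (26.0% and 25.4% of all genes), in DKO 39 fell and 1 rose (26.2% and 25.4%), and in TFEB KO 18 fell and 5 rose (21.0% and 17.4%). The median log2 fold changes were -0.62, -0.67 and -0.10. Torin and control libraries did not overlap, with Torin lower, in 37, 38 and 18 members, and with Torin higher in 3, 3 and 8. Of all genes 58.4%, 57.1% and 47.2% had no overlap in either direction. Falls of at least 2-fold were found in 9 members in TFE3 KO, in 9 in DKO and in 0 in TFEB KO. Of all genes 11.7%, 11.1% and 5.02% passed at that size in either direction.

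By role, all 4 anaphase onset genes and all 5 checkpoint genes fell in TFE3 KO, with 5 of 7 spindle genes and 6 of 7 central spindle genes. In DKO all 5 checkpoint genes fell too, with 3 of 4 anaphase onset genes and 6 of 7 each of the spindle and central spindle genes. In TFEB KO 1 of 4 anaphase onset genes, 2 of 5 checkpoint genes, 1 of 7 spindle genes and 3 of 7 central spindle genes fell. The passenger complex fell in full in TFE3 KO and DKO and in 3 of 4 genes in TFEB KO.

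Some members fell with Torin in every genotype. There were 16 of these, where 14.2% of all genes tested fell in all 4 genotypes: ANLN, AURKA, AURKB, BUB1, CCNB1, CDC20, CDCA8, CDK1, FOXM1, INCENP, KIF23, MAD2L1, MYBL2, NCAPH, PRC1 and SPC25. MYBL2 was at 246, 250.4 and 277 without and 83.3, 75.5 and 71.8 with Torin in TFE3 KO (log2 fold change -1.73 ± 0.10, adjusted p = 7.79e-17). It was at 287, 249 and 203 against 133, 139 and 113 in TFEB KO (log2 fold change -0.93 ± 0.10, adjusted p = 3.74e-09). In DKO it was at 213, 265 and 289.6 against 81.8, 83.6 and 76.7 (log2 fold change -1.64 ± 0.10, adjusted p = 4.46e-16). In all 3 knockouts, as in WT, no Torin library of MYBL2 came within the range of its controls. SPC25 fell by 1.33 (log2) in TFE3 KO, 0.90 in TFEB KO and 1.58 in DKO.

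The Aurora kinases and CDC20 were among these 16. AURKA was at 269, 275 and 266 against 148, 127 and 124 in TFE3 KO, 315, 304 and 302 against 197, 192 and 163 in TFEB KO and 320.3, 308 and 295 against 147, 148 and 129.9 in DKO. AURKB was at 322, 294 and 268 against 152, 147 and 142 in TFE3 KO, 285, 241 and 197 against 159.7, 166 and 136 in TFEB KO and 330.3, 358 and 313 against 149.7, 161 and 148 in DKO. For both kinases every Torin library was below every control of its genotype. CDC20 was at 210.3, 189.7 and 204 against 130.4, 115 and 118 in TFE3 KO, 159, 157 and 157 against 119, 119 and 116 in TFEB KO and 183, 212 and 244 against 115, 114 and 136 in DKO.

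CDK1 was at 251, 267 and 268 without and 125, 125 and 132 with Torin in TFE3 KO (log2 fold change -1.03 ± 0.08, adjusted p = 6.29e-16), at 241, 231 and 246 against 177, 189 and 182 in TFEB KO (log2 fold change -0.39 ± 0.08, adjusted p = 5.77e-05) and at 263, 253 and 281 against 155, 139.96 and 138 in DKO (log2 fold change -0.88 ± 0.08, adjusted p = 1.42e-13). FOXM1 gave log2 fold changes of -1.05 ± 0.09 in TFE3 KO, -0.57 ± 0.09 in TFEB KO and -1.20 ± 0.09 in DKO (adjusted p = 9.16e-14, 1.67e-06 and 1.39e-15). CCNB1 gave -0.60 ± 0.09, -0.31 ± 0.09 and -0.67 ± 0.09 (adjusted p = 2.49e-07, 0.00522 and 2.53e-08), and its call in TFEB KO was lost without TFEB KO Torin replicate 1 (adjusted p = 0.0731). MAD2L1 (log2 fold change -1.34 ± 0.13, adjusted p = 2.20e-12) was among the 3 lowest in TFE3 KO and ANLN (log2 fold change -1.35 ± 0.10, adjusted p = 3.19e-15) among the 3 lowest in DKO.

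The members that rose with Torin were few. TOP2A rose in all 4 genotypes, at 1395, 1319.8 and 1173 without and 1608, 1671 and 1779 with Torin in TFE3 KO, 1314, 1122 and 1118 against 1806, 1777 and 1727 in TFEB KO (log2 fold change 0.58 ± 0.11, adjusted p = 4.48e-04) and 1388, 1369 and 999 against 1666, 1665 and 1455 in DKO (log2 fold change 0.36 ± 0.11, adjusted p = 0.0127). In DKO this rested on control replicate 3, which was low, and it did not pass without that library (adjusted p = 0.0523). CENPF rose in TFE3 KO (log2 fold change 0.67 ± 0.22, adjusted p = 0.017) and in TFEB KO (log2 fold change 0.85 ± 0.22, adjusted p = 0.00548), and in TFE3 KO the call was lost without control replicate 3 or Torin replicate 2 (adjusted p = 0.097 and 0.0619). NEK2 (log2 fold change 0.52 ± 0.14, adjusted p = 0.00122) and CDC25C (log2 fold change 0.40 ± 0.17, adjusted p = 0.0395) rose in TFE3 KO, the latter with overlapping libraries and without passing when control replicate 1 or 2 or Torin replicate 1 or 3 was left out (adjusted p from 0.0509 to 0.269). HMMR rose in TFEB KO (117, 135 and 143 against 177, 192 and 202; log2 fold change 0.53 ± 0.09, adjusted p = 2.01e-06).

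PLK1, which rose with Torin in WT cells, fell in TFE3 KO, from 295, 292 and 282 to 249, 256 and 241 (log2 fold change -0.22 ± 0.07, adjusted p = 0.00609), and in DKO, from 332, 325 and 295 to 244, 242 and 225 (log2 fold change -0.42 ± 0.07, adjusted p = 1.02e-06). In TFEB KO it was at 291, 271 and 265 without and 287, 301 and 272 with Torin, which did not pass (log2 fold change 0.06 ± 0.07, adjusted p = 0.543). SPC24 passed in TFEB KO (log2 fold change -0.87 ± 0.30, adjusted p = 0.0177), but on 5 reads in the 3 Torin libraries against 21 in the controls, a ratio of 0.220 with a 95% counting interval of 0.0647 to 0.599 that covers counting error only. That call was lost without TFEB KO control replicate 2 or TFEB KO Torin replicate 2 or 3 (adjusted p from 0.0536 to 0.0615).

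**Figure D5:**
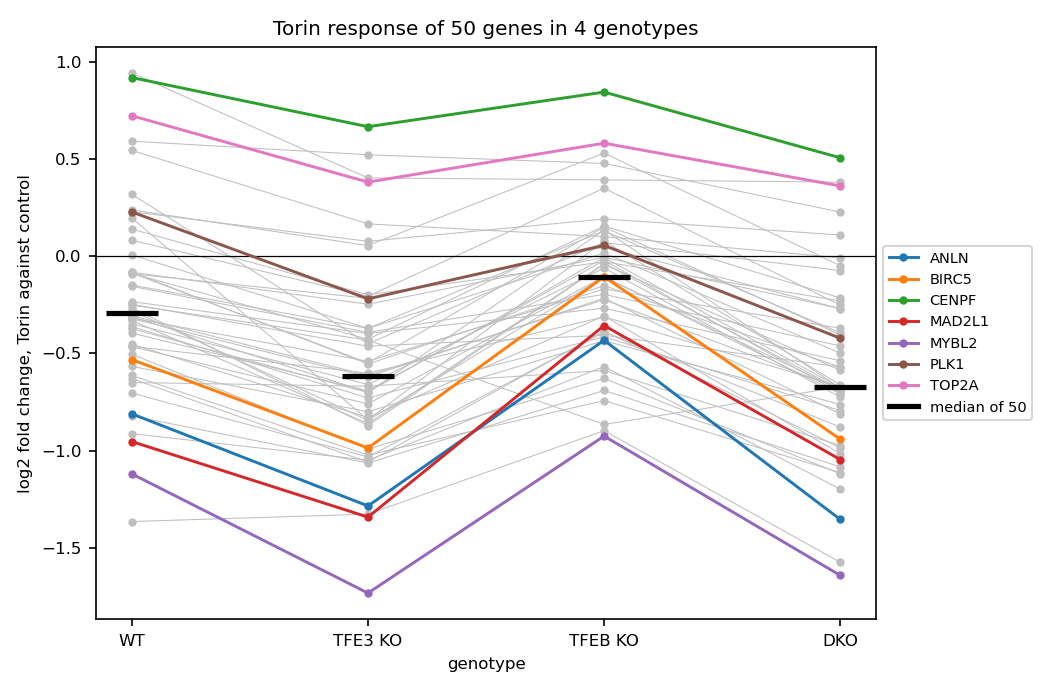
Log2 fold change with Torin (y axis) of each of the 50 members (1 line per gene, 7 of them coloured and named) in cells of each genotype (x axis), each against its own controls, with a black bar at the median. The medians are -0.29 in WT, -0.62 in TFE3 KO, -0.10 in TFEB KO and -0.67 in DKO.

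Whether the Torin response itself differed between genotypes was tested as an interaction, the Torin response of one genotype minus that of another. Against WT, TFE3 KO gave 5 members with a lower and 0 with a higher response (0.575% and 0.490% of all genes), DKO gave 4 and 0 (0.192% and 0.314%), and TFEB KO gave 0 and 2 (0.345% and 0.812%). The estimate was below WT for 49 of 50 members in TFE3 KO (49.3% of all genes), for 50 of 50 in DKO (49.2% of all genes) and for 18 of 50 in TFEB KO (6528 of the 13052 genes tested), with medians of -0.33, -0.36 and 0.13. These 3 comparisons subtract the same WT control and WT Torin libraries, so their counts are not independent of each other. The difference between controls also enters each estimate, and WT and knockout controls differ in their labels. Against WT, the members' medians in TFE3 KO, DKO and TFEB KO were 0.25, 0.24 and 0.06 without drug. In Torin they were -0.08, -0.10 and 0.12. A lower response here thus need not be a lower level in Torin. At an unadjusted p under 0.05 there were 27 members in TFE3 KO, 28 in DKO and 10 in TFEB KO, beside 10.7%, 9.82% and 13.6% of all genes.

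In TFE3 KO the lowest interactions with WT were those of MYBL2 (log2 difference -0.61 ± 0.16, adjusted p = 0.0404), CCNA2 (log2 difference -0.61 ± 0.15, adjusted p = 0.0364) and the condensin subunit NCAPG (log2 difference -0.57 ± 0.13, adjusted p = 0.0138), and PLK1 (log2 difference -0.45 ± 0.10, adjusted p = 0.0152) and BIRC5 passed as well. In DKO PLK1 (log2 difference -0.65 ± 0.10, adjusted p = 1.56e-04), AURKB (log2 difference -0.62 ± 0.15, adjusted p = 0.0414) and CDCA8, the borealin subunit of the passenger complex (log2 difference -0.56 ± 0.12, adjusted p = 0.016), were the lowest, and AURKA passed as well. In TFEB KO SMC4 (log2 difference 0.51 ± 0.12, adjusted p = 0.0156) and BIRC5 (log2 difference 0.43 ± 0.12, adjusted p = 0.0494) passed. The interactions of CCNB1, CDK1 and FOXM1 with WT did not pass in any knockout, although that of CDK1 in TFE3 KO did without WT control replicate 1 (adjusted p = 0.0371).

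The calls against WT rested on single libraries. For TFE3 KO the count was 0 without WT Torin replicate 2, 1 without TFE3 KO control replicate 2, 2 without WT control replicate 3 or TFE3 KO control replicate 1, and 8 without WT control replicate 1. It was 3 without WT control replicate 2, WT Torin replicate 3, TFE3 KO control replicate 3 or TFE3 KO Torin replicate 2 or 3. For DKO it was 1 without WT control replicate 2, WT Torin replicate 2 or DKO control replicate 2, 2 without WT control replicate 3, WT Torin replicate 3 or DKO Torin replicate 2 or 3, and 7 without DKO control replicate 3. For TFEB KO it was 0 without WT Torin replicate 3, TFEB KO control replicate 1 or TFEB KO Torin replicate 3, and 1 without any 1 WT control, TFEB KO control replicate 2 or TFEB KO Torin replicate 2. PLK1 in DKO was past the threshold whichever 1 library was left out, while PLK1 in TFE3 KO was not without WT Torin replicate 2 or 3 (adjusted p = 0.0567 and 0.0944). MYBL2 in TFE3 KO lost its call without any 1 library except WT control replicate 1 and TFE3 KO Torin replicate 1 (adjusted p from 0.0593 to 0.267), and CCNA2 without WT control replicate 3, either WT Torin library, any 1 TFE3 KO control or TFE3 KO Torin replicate 3 (adjusted p from 0.0619 to 0.207). NCAPG lost it without either WT Torin library or TFE3 KO control replicate 2 (adjusted p from 0.057 to 0.0912). In DKO the call of AURKB was lost without any 1 library except WT control replicate 1 and DKO control replicate 3 (adjusted p from 0.0527 to 0.163), and that of CDCA8 without WT control replicate 2, either WT Torin library or DKO control replicate 2 (adjusted p from 0.0627 to 0.0804). In TFEB KO the call of SMC4 was lost without WT control replicate 2, WT Torin replicate 3, TFEB KO control replicate 1 or TFEB KO Torin replicate 3 (adjusted p from 0.0587 to 0.13), and that of BIRC5 without any 1 library except WT control replicate 2, WT Torin replicate 2 and TFEB KO Torin replicate 1 (adjusted p from 0.0527 to 0.331). With the identical column as WT Torin the counts were 2 for TFE3 KO, 1 for DKO and 0 for TFEB KO. By edgeR on the recovered reads MYBL2 in TFE3 KO and AURKB in DKO did not pass (adjusted p = 0.0516 and 0.0611). AURKB also missed with a pseudocount of 0.1 (adjusted p = 0.0518), and CDCA8 with only the libraries compared (adjusted p = 0.0667). BIRC5 in TFEB KO missed with that pseudocount, no filter, median-of-ratios scaling, the replicate block or only the libraries compared (adjusted p from 0.0512 to 0.108).

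The interaction between the 2 single knockouts uses no WT library and gave more calls. In 22 of the 50 members the Torin response was lower in TFE3 KO than in TFEB KO and in 0 it was higher, beside 4.58% and 3.10% of all genes, with a median of -0.40 (0.02 for all genes). The estimate was lower in TFE3 KO for 46 of 50 members and for 48.2% of all genes. MAD2L1 stood at 60.4, 59.7 and 60.7 without and 25.2, 23.2 and 21.2 with Torin in TFE3 KO, and at 35.7, 46.7 and 53.05 against 30.9, 33.5 and 40.1 in TFEB KO (interaction -0.99 ± 0.18, adjusted p = 1.78e-04). BIRC5, an inhibitor of apoptosis that also targets AURKB to centromeres, stood at 211, 206 and 216 against 109.6, 97.1 and 112 in TFE3 KO and at 266, 263 and 256 against 227, 257 and 247 in TFEB KO (interaction -0.88 ± 0.11, adjusted p = 1.39e-07). ANLN stood at 89.5, 94.8 and 92.004 against 37.3, 41.4 and 33.3 in TFE3 KO and at 77.2, 76.3 and 73.9 against 56.7, 56.2 and 54.8 in TFEB KO (interaction -0.85 ± 0.15, adjusted p = 7.62e-05).

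In these 3 genes every TFE3 KO library in Torin lay below every TFE3 KO control. MYBL2 (interaction -0.81 ± 0.15, adjusted p = 2.35e-04), CDK1 (-0.64 ± 0.11, adjusted p = 4.50e-05) and FOXM1 (-0.48 ± 0.13, adjusted p = 0.0119) passed, and CCNB1 (-0.29 ± 0.13, adjusted p = 0.171) and PLK1 (-0.28 ± 0.10, adjusted p = 0.0689) did not. PLK1 did pass under median-of-ratios scaling (adjusted p = 0.049) and without TFEB KO control replicate 1 (adjusted p = 0.0496). The count stayed between 19 and 23 as 1 library was left out, and FOXM1 lost its call without TFE3 KO control replicate 2 (adjusted p = 0.0518) or TFEB KO Torin replicate 3 (adjusted p = 0.0662).

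Under Torin, the level of the members was compared between each knockout and WT. In TFEB KO 12 members were higher and 0 lower (9.39% and 8.56% of all genes), led by BIRC5 (166 and 144 in WT and 227, 257 and 247 in TFEB KO; log2 fold change 0.65 ± 0.09, adjusted p = 2.80e-07), HMMR (log2 fold change 0.58 ± 0.10, adjusted p = 1.56e-05) and FOXM1 (log2 fold change 0.55 ± 0.10, adjusted p = 9.12e-05), with CDK1 higher as well (log2 fold change 0.42 ± 0.09, adjusted p = 4.01e-04). In TFE3 KO 0 were higher and 7 lower (3.41% and 6.23% of all genes), led by MYBL2 (log2 fold change -0.79 ± 0.12, adjusted p = 6.25e-06), BIRC5 (109.6, 97.1 and 112 in TFE3 KO; log2 fold change -0.54 ± 0.09, adjusted p = 1.02e-05) and ANLN (log2 fold change -0.43 ± 0.12, adjusted p = 0.0117). In DKO 0 were higher and 4 lower (5.03% and 7.03% of all genes), namely MYBL2 (log2 fold change -0.72 ± 0.12, adjusted p = 3.14e-05), ANLN (log2 fold change -0.68 ± 0.12, adjusted p = 3.84e-05), BIRC5 (log2 fold change -0.49 ± 0.09, adjusted p = 6.30e-05) and PLK1 (log2 fold change -0.45 ± 0.08, adjusted p = 2.90e-05), and PLK1 was also lower in TFE3 KO (log2 fold change -0.38 ± 0.08, adjusted p = 4.41e-04). BIRC5 was thus below WT in Torin in TFE3 KO and DKO and above it in TFEB KO.

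These 3 comparisons share the WT Torin libraries, of which there are 2. The identical column was like HBSS here too, with BIRC5 at 312 (310.4 and 312 in HBSS and 166 and 144 in Torin) and FOXM1 at 146 (149.6 and 158 in HBSS and 60.5 and 70.2 in Torin). With it added to the WT Torin libraries all the same, the counts were 13 for TFE3 KO, 2 for TFEB KO and 14 for DKO, and in TFEB KO the estimate for CDK1 turned to -0.02 (adjusted p = 0.967) and FOXM1 and BIRC5 did not pass (adjusted p = 0.614 and 0.198). For TFE3 KO the count was 3 without WT Torin replicate 2 or TFE3 KO Torin replicate 3, and ANLN did not pass there (adjusted p = 0.21 and 0.0735). For TFEB KO it was 5 without WT Torin replicate 2 or TFEB KO Torin replicate 3 and 6 without WT Torin replicate 3. CCNB1, which did not pass in TFEB KO (log2 fold change 0.26 ± 0.10, adjusted p = 0.0716), did without TFEB KO Torin replicate 1 (adjusted p = 0.0277).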

How the data were processed

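Polyadenylated RNA of 501mel cells was measured in 27 libraries, in 9 groups of 3 by GEO's labels. Per the labels' processing notes FastQC 0.11.9, cutadapt 2.10, STAR 2.7.8a and edgeR were used on hg38, and the study's methods name trim_galore. The file deposited by the authors gives, for 13523 gene symbols, a normalised signal on the CPM scale. The counter, how libraries were scaled and how genes were filtered are not given in the sources used here. In all 27 columns 100% of values were whole multiples of the value of 1 read (tolerance 0.05 of a read), so whole reads were recovered by division, and floors of 3 reads cover counting error only. Because 2 columns were identical, 25 libraries were used.

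The 50 members were found by symbol, and the members and the 7 other lists were chosen with earlier results of these data known. The filter asked for a value of 1 or more in 3 or more libraries. A linear model, 1 coefficient per group, described log2(value + 1) of all tested genes and was fitted with limma 3.58.1 (R 4.3.3), and p-values, 2-sided, were adjusted by Benjamini-Hochberg over all 13052 genes within each of 17 comparisons. Fold changes are on this scale and understate changes of low genes. A gene passed at an adjusted p under 0.05. The script was tested on simulated data. In each comparison, the members given with fold change and adjusted p were the 3 highest and 3 lowest that passed, and CCNB1, CDK1, PLK1, FOXM1 and MYBL2 in any case, with at most 3 genes per other list. TFE3 and TFEB were the other genes named with values. As alternatives, the pseudocount was set to 0.1, the filter was dropped or raised to a value of 5, and the following were tried: median-of-ratios scaling (DESeq2 1.42.0), edgeR 4.0.16 on the recovered reads, a fit of only the libraries compared, a replicate block, leaving out each library, and keeping the identical column. Promoters were matched by symbol to RefSeq (GRCh38.p14). Figures were drawn with matplotlib 3.10.9.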

Additional observations from a re-analysis of the deposited data

Results flagged for a closer look

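Each value here is a Torin response of one genotype minus that of another, on the log2 scale, that passed the limma test of the difference itself at an adjusted p under 0.05. Each knockout is 1 clone, and the part of clone or of control libraries that stood low in these differences was not tested. Neither was that of the missing WT Torin library or of the control labels that differ between WT and knockouts.

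Against WT, the response of TFE3 KO cells was lower for CCNA2 (-0.61), PLK1 (-0.45), BIRC5 (-0.45), MYBL2 (-0.61) and NCAPG (-0.57). That of DKO cells was lower for PLK1 (-0.65), AURKA (-0.50), AURKB (-0.62) and CDCA8 (-0.56). That of TFEB KO cells was higher for BIRC5 (0.43) and SMC4 (0.51).

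Between the single knockouts the response was lower in TFE3 KO than in TFEB KO for 22 members. By role these were the cyclin and kinase pair CCNA2 (-0.83) and CDK1 (-0.64), the checkpoint genes BUB1B (-0.82), BUB3 (-0.37) and MAD2L1 (-0.99), the passenger complex genes BIRC5 (-0.88) and CDCA8 (-0.52) and the spindle genes KIF2C (-0.70), NUSAP1 (-0.58) and HMMR (-0.48). The central spindle and cytokinesis genes were KIF20B (-0.69), KIF23 (-0.67), PRC1 (-0.37), ECT2 (-0.66), RACGAP1 (-0.67) and ANLN (-0.85). The remaining ones were the condensin subunits SMC2 (-0.60), SMC4 (-0.84) and NCAPG (-0.74), the ubiquitin-conjugating enzyme UBE2C (-0.40) and both transcription factors, FOXM1 (-0.48) and MYBL2 (-0.81).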

How the results depend on the processing

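All values here are counts of the 50 members that passed, unless said otherwise. Over 246 alternative settings for these counts, the direction of the majority turned in 1 and the sign of the median in 2. Of 140 named gene and comparison pairs, 96 kept their call under every setting. The identical column had values like those of the HBSS libraries (a member sum of 12004, against 11619 and 11746 in HBSS and 7852 and 7376 in Torin), so counting it as WT Torin mixes the treatments. Doing so moved the count to 15 for Torin in WT (33 without it), 21 for HBSS against Torin (37), 13, 2 and 14 for TFE3 KO, TFEB KO and DKO against WT in Torin (7, 12 and 4), and 2, 0 and 1 for the Torin responses of TFE3 KO, TFEB KO and DKO minus WT (5, 2 and 4). With it the estimates for NDC80 (0.0025) and INCENP (0.36) in Torin in WT and for CDK1 in TFEB KO against WT in Torin (-0.018) turned in sign, and the medians for TFEB KO against WT in Torin and for its response minus that of WT turned to -0.08 and -0.13. As WT HBSS it gave 38 for HBSS and 41 for HBSS against Torin, and under both labels 30.

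Fitting only the libraries compared gave 2 for TFEB KO against WT and 9 for DKO against WT without drug, 7 for DKO against WT in Torin, and 1 and 2 for the responses of TFEB KO and DKO minus WT. The response of TFEB KO minus WT also gave 1 with a pseudocount of 0.1, no filter, median-of-ratios scaling and the replicate block, and that of DKO minus WT gave 2 with a pseudocount of 0.1. The cause of these moves was not tested. Median-of-ratios scaling moved the median of all genes by at most 0.0383. edgeR on recovered reads gave 35 for HBSS, 27 for Torin in WT and 23 for the response of TFE3 KO minus TFEB KO.

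Leaving out 1 library gave 30 to 35 for HBSS, 24 to 33, 39 to 42, 19 to 22 and 38 to 41 for Torin in the WT, TFE3 KO, TFEB KO and DKO genotypes, and 32 to 35 for HBSS against Torin. It gave 5 to 11, 1 to 5 and 10 to 19 for TFE3 KO, TFEB KO and DKO against WT without drug, 3 to 8, 5 to 10 and 4 to 6 for the same in Torin, and 14 to 18 for TFE3 KO against TFEB KO. For the responses of TFE3 KO, TFEB KO and DKO minus WT it gave 0 to 8, 0 to 2 and 1 to 7, and for TFE3 KO minus TFEB KO 19 to 23.

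Of 92 pairs of libraries with the same replicate number, 4 had a correlation of deviations above 0.1 (median 0.00667, range -0.192 to 0.161). Deviations within groups of 2 or 3 libraries also hold counting error, so low correlations do not settle whether the numbers pair the libraries. With the replicate block the count was 8 for the response of TFE3 KO minus WT (5 without) and 1 for that of TFEB KO minus WT (2 without), and in the other 15 comparisons it stayed within 1.5 times, for example 35 for HBSS and 34 for Torin in WT. With 2 libraries in WT HBSS and WT Torin, and 1 clone per knockout, these groups limit the precision of every comparison that uses them, and SPC24 is limited by its few reads.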
